A study of Bos taurus with 23 samples.

Results

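STAG2, SKA2 and DIDO1 are 3 genes of chromosome cohesion, chromosome segregation and chromatin, measured here in the endometrium of dairy cows before embryo transfer. They were taken by Ensembl identifier (STAG2 ENSBTAG00000009121, SKA2 ENSBTAG00000021680, DIDO1 ENSBTAG00000006002) from the list of 50 genes with which the study told cows that became pregnant from cows that did not. All 3 of these genes, of 24616 in the count files, were measured in every library, and all 3 were among the 14852 genes that passed the filter on low counts. The study placed SKA2 and DIDO1 in its UP list (higher in pregnant cows) and STAG2 in its DOWN list, from part of these cows pooled with cattle of other breeds measured on microarrays, which are not analysed here. The difference by pregnancy status is therefore what chose the genes, and it is given below as a description with no test.

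STAG2 encodes a subunit of cohesin, the ring complex that holds sister chromatids together until anaphase and that also shapes chromatin loops in cells that are not dividing. SKA2 encodes a subunit of the Ska complex, which keeps kinetochores attached to spindle microtubules during mitosis. DIDO1 encodes a PHD finger protein that binds methylated histone H3 and RNA polymerase II, and forms of it are found at the spindle. In the endometrium, cell division in glands and stroma follows the oestrous cycle under oestradiol and progesterone, whereas cohesin and DIDO1 also act in resting cells. By the RefSeq annotation of the ARS-UCD2.0 assembly, STAG2 lies between XIAP and SH2D1A, and SKA2 lies between TRIM37 and PRR11 with the microRNA genes MIR454 and MIR301A inside it. DIDO1 lies between GID8, whose edge it overlaps, and TCFL5. Whether counting used the strand of the reads is not given in the sources used here, so reads in these overlaps could not be assigned to one gene with certainty.

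Endometrial biopsies of 23 Holstein cows were taken on days 6 to 8 in dioestrus, with 1 library of total RNA per cow. In the cycle that followed, 1 in vitro produced embryo was placed in each cow, and slaughter on days 26 to 47 showed 12 pregnant cows (R) and 11 non-pregnant cows (nonR). The cows carried no genetic change and received no treatment that the labels name, and the labels give parity (1 in 12 cows, 2 in 5 and 3 in 6) and the days from calving to transfer (128 to 274) in place of age. Each biopsy is a mixture of epithelium, stroma, vessels and leukocytes, and since the files name genes by identifier alone, the markers of these cell types could not be looked up. A lower value of a gene can thus mean fewer cells that express it or less RNA per cell, and these cannot be told apart.

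The libraries held between 6920879 and 27357249 counts in genes. On the first principal component of all genes but these 3, which held 42.3% of the variance, 4 libraries stood apart (non-pregnant replicates 4 and 6, pregnant replicates 22 and 23), with scores of 57.1 to 114.5 against -31.1 to 10.5 in the other 19. Pregnant replicates 20 and 21 had the fewest counts in genes (9171434 and 6920879) and at least 75.5% of their reads outside genes, against at most 59.6% in every other library. Results that rest on these 6 libraries are given with and without them.

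STAG2 differed little between most cows. Its level in CPM (counts scaled to library size after TMM normalization) was 248 at the lowest, 291 at the median and 344 at the highest in the 11 non-pregnant cows, and 244, 288 and 480.0 in the 12 pregnant cows. The groups overlapped over nearly their whole range, and the pregnant group reached above the non-pregnant one only through replicate 21, at 480.0 CPM, and replicate 22, at 373 CPM. The means were 289 ± 30.7 CPM (SD, n = 11) in non-pregnant and 304 ± 65.8 CPM (n = 12) in pregnant cows, and 6 of 12 pregnant cows were above the non-pregnant median.

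SKA2 fell into a low and a high set of cows within each group. Its lowest, median and highest levels were 18.4, 34.1 and 44.3 CPM in non-pregnant cows and 16.5, 37.6 and 48.3 CPM in pregnant cows. In both groups the lowest values were those of the libraries that stood apart. The means were 33.4 ± 7.80 CPM (n = 11) and 35.96 ± 9.91 CPM (n = 12), and 8 of 12 pregnant cows were above the non-pregnant median.

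DIDO1 had nearly equal medians in both groups and a wider range in pregnant cows. Its lowest, median and highest levels were 41.5, 48.5 and 60.4 CPM in non-pregnant cows and 36.8, 48.4 and 70.4 CPM in pregnant cows. The pregnant group held both the lowest value (replicate 20) and the highest (replicate 22), and the non-pregnant values lay inside its range. The means were 50.1 ± 5.73 CPM (n = 11) and 51.6 ± 10.7 CPM (n = 12), with 6 of 12 pregnant cows above the non-pregnant median.

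**Figure D1:**
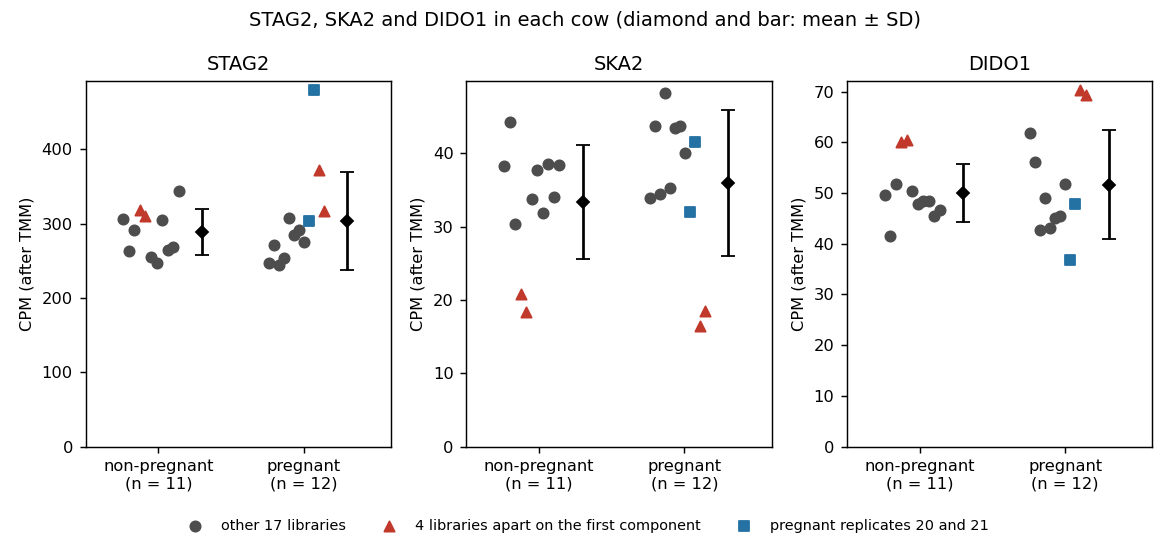
Level of STAG2, SKA2 and DIDO1 (CPM after TMM, vertical axes from 0) by cow (11 non-pregnant and 12 pregnant), with the mean ± SD beside each group. Triangles mark the 4 libraries that stood apart, which are the lowest 4 for SKA2 (16.5 to 20.9 CPM), and squares mark pregnant replicates 20 and 21, the second of which holds the highest STAG2 value (480.0 CPM).

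The 4 libraries that stood apart had low SKA2 together with high DIDO1. SKA2 was 20.9 and 18.4 CPM in non-pregnant replicates 4 and 6, and 16.5 and 18.6 CPM in pregnant replicates 22 and 23. In the other 19 libraries it was 30.4 to 48.3 CPM, so the sets did not overlap. Of the 14852 genes tested, 4.92% had all 4 of these libraries under the other 19, and of the 48 genes of the study's list that are reported here, 2 did, SKA2 and SYT1 (a calcium sensor of regulated secretion, named here because the count is small). The libraries were set aside by the first component, which these orderings share with many genes, so the order of SKA2 is a description and not a test.

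DIDO1 in the same 4 libraries was 60.1 and 60.4 CPM in non-pregnant replicates 4 and 6, and 70.4 and 69.4 CPM in pregnant replicates 22 and 23. The other 19 libraries ranged from 36.8 to 61.9 CPM, and 1 of them, pregnant replicate 5 at 61.9 CPM, was above the lowest of the 4. Pregnant replicate 5 also had the highest score of the 19 on the first component (10.5). For comparison, 4.98% of genes had all 4 above all 19, and DIDO1 was not among them. In mean log2 CPM, the 4 minus the other 19, SKA2 differed by -1.03, and 13.6% of genes had a lower difference. DIDO1 differed by 0.45 and STAG2 by 0.20, and 23.3% and 35.4% of genes had a higher difference. STAG2 in the 4 libraries was 310.1 to 373 CPM, inside the 244 to 480.0 CPM of the other 19. Of those 19, 2 were above the lowest of the 4, non-pregnant replicate 19 (344 CPM) and pregnant replicate 21 (480.0 CPM). The mean of STAG2 was 330 CPM in the 4 and 290 CPM in the 19.

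The ratio of SKA2 to DIDO1 counts within a library, which does not depend on how libraries are scaled, showed the same order. It was 0.234 to 0.347 in the 4 libraries and 0.548 to 1.07 in the other 19, with pregnant replicate 5 at the lower end of the 19 (0.548) and non-pregnant replicate 2 at the upper end (1.07). By pregnancy status the ranges overlapped almost wholly, at 0.304 to 1.07 in non-pregnant and 0.234 to 0.986 in pregnant cows. The ratio of STAG2 to SKA2 counts was 15.3 to 22.6 in the 4 libraries and 5.26 to 11.6 in the others. These 4 cows had parity 1 (replicates 4, 22 and 23) or 2 (replicate 6), were 173 to 219 days from calving, and had 11736667 to 20507100 counts in genes and 46.8% to 59.2% of reads outside genes, all inside the range of the other libraries. The part that cell makeup plays in these values was not tested.

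**Figure D2:**
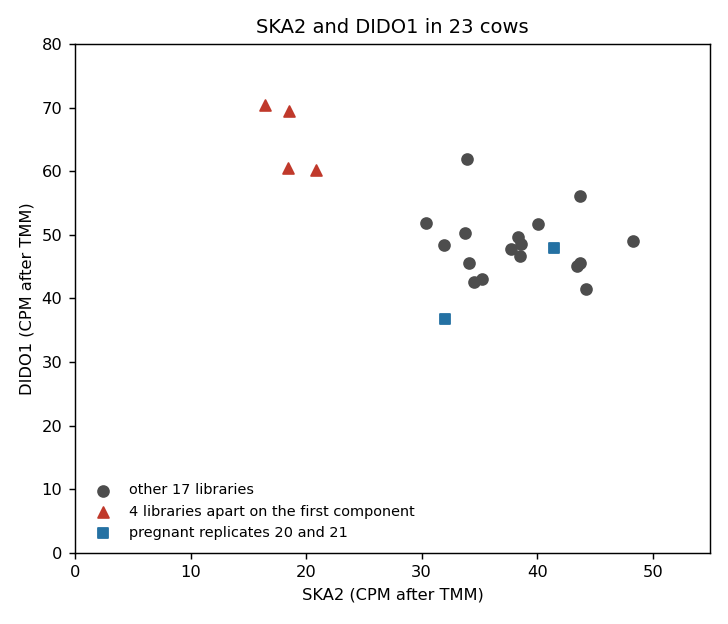
Level of DIDO1 (vertical axis, CPM after TMM) against that of SKA2 (horizontal axis, CPM after TMM) in 23 cows, both axes from 0. The 4 libraries that stood apart (triangles) lie at the upper left, with SKA2 of 16.5 to 20.9 CPM and DIDO1 of 60.1 to 70.4 CPM, and in the other 19 r was 0.046 with group means removed.

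STAG2 was higher in libraries with fewer counts in genes. Among the 19 libraries that did not stand apart, with the mean of each status group removed, log2 STAG2 correlated with the log2 of counts in genes at Pearson's r = -0.775 (two-sided permutation p = 0.00021, adjusted over 6 relations 0.00126, Spearman's rho = -0.695 with permutation p = 0.00134 and adjusted p = 0.00804). With the share of reads outside genes r was 0.666 (permutation p = 0.00402, adjusted p = 0.0121, rho = 0.609 with permutation p = 0.00698 and adjusted p = 0.0209). Pregnant replicates 20 and 21 were the 2 farthest from the median on both measures, and without them r was -0.602 (permutation p = 0.0112) for counts in genes and 0.43 (permutation p = 0.086) for the share outside genes. With the group means recomputed in those 17 libraries the values were -0.538 (adjusted p = 0.157 by permutation) and 0.322 (adjusted p = 0.619 by permutation). Pregnant replicate 21 alone decided both calls, since without it they were -0.573 (adjusted p = 0.0752 by permutation) and 0.41 (adjusted p = 0.18 by permutation). The relation of STAG2 to depth thus had the same direction in every one of these sets but passed the test over 6 relations only with that library in it.

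SKA2 and DIDO1 showed no such relation that passed the test. With the log2 of counts in genes r was 0.126 for SKA2 and 0.234 for DIDO1, and with the share outside genes it was -0.192 and -0.338. These relations were not computed for other genes, so whether that of STAG2 is particular to it is not known. The ratio of STAG2 to DIDO1 counts, free of scaling, was highest in pregnant replicates 21 (10.0) and 20 (8.25), against at most 7.39 elsewhere. STAG2 itself was 480.0 CPM in replicate 21 but 304 CPM in replicate 20, within the range of the other pregnant cows, and in replicate 20 the ratio went with the lowest DIDO1 of all cows (36.8 CPM).

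**Figure D3:**
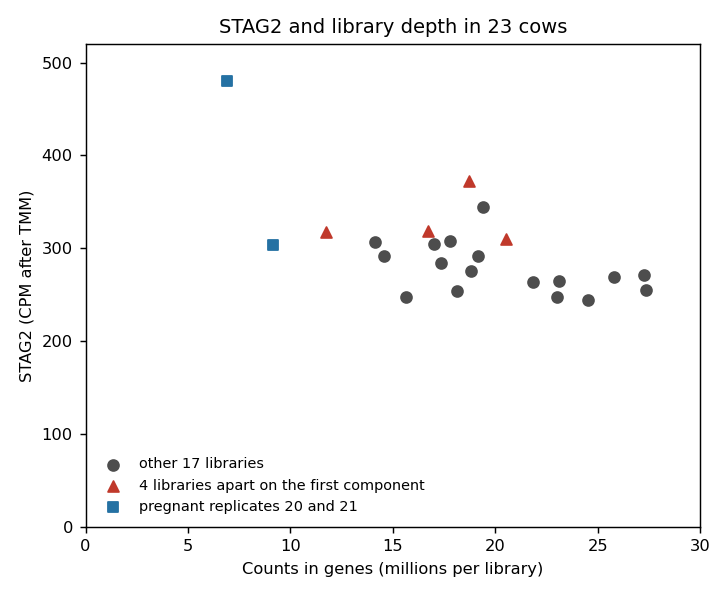
Level of STAG2 (vertical axis, CPM after TMM, from 0) against counts in genes (horizontal axis, per library, from 0) in 23 cows. Pregnant replicate 21 lies at the upper left (480.0 CPM at 6920879 counts), and among the 17 unmarked libraries the values ranged from 244 to 344 CPM.

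The difference by pregnancy status was small for each of the 3 genes beside its spread. In the fit over all genes (edgeR quasi-likelihood), the log2 difference, pregnant minus non-pregnant, was 0.075 (SE 0.10) for STAG2, 0.11 (SE 0.17) for SKA2 and 0.045 (SE 0.10) for DIDO1. The median over all 14852 genes was 0.034, and that of the absolute difference was 0.17, larger than the value of each of the 3 genes. At an adjusted p of 0.05, edgeR called 0 of these genes by status (0%, with 1556 or 10.5% at an unadjusted p of 0.05), and DESeq2's Wald test called 10 of 14564 (0.0687%). The values are for all 23 cows, including those on which the genes were chosen.

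The sign for STAG2 turned with the libraries used. Without the 4 libraries that stood apart the log2 differences by status were 0.048 (SE 0.11) for STAG2, 0.11 (SE 0.095) for SKA2 and -0.0094 (SE 0.084) for DIDO1. Without pregnant replicates 20 and 21 they were -0.013 (SE 0.084), 0.097 (SE 0.18) and 0.090 (SE 0.098), and without all 6 they were -0.069 (SE 0.081), 0.14 (SE 0.095) and 0.032 (SE 0.074). For STAG2 the value was -0.0019 without replicate 21 alone, so that in these sets of libraries it was above 0 only with that cow. Single cows also moved the others, SKA2 from 0.025 without non-pregnant replicate 6 to 0.18 without pregnant replicate 22 and DIDO1 from -0.016 without pregnant replicate 23 to 0.069 without pregnant replicate 20. Over all genes without the 4 libraries that stood apart, edgeR called 0 of 14885 by status (0%), with 15.8% at an unadjusted p of 0.05. With the share of reads outside genes as a covariate, added after the data were seen, STAG2 was at -0.085 (SE 0.091). Among the 17 unmarked libraries the means were 283 ± 31.2 CPM (n = 9) in non-pregnant and 272 ± 22.5 CPM (n = 8) in pregnant cows for STAG2. For SKA2 they were 36.4 ± 4.25 and 40.4 ± 5.31 CPM, and for DIDO1 47.8 ± 3.02 and 49.4 ± 6.84 CPM. These 17 match in number the study's 8 R and 9 nonR Holstein cows. In them the log2 differences had the signs of the study's lists for all 3 genes. They may be the cows on which the genes were chosen, so these signs are no independent evidence.

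**Figure D4:**
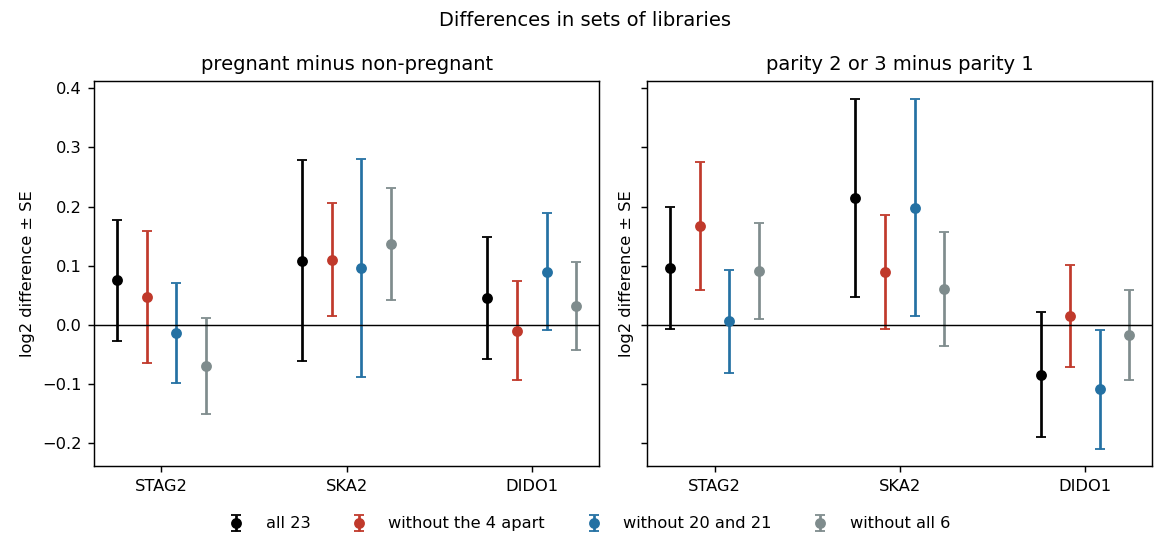
Log2 difference ± SE of STAG2, SKA2 and DIDO1, pregnant minus non-pregnant (left) and parity 2 or 3 minus parity 1 (right), in all 23 libraries and without those that stood apart or had most reads outside genes. STAG2 by status is above 0 in all 23 (0.075) and below 0 without all 6 (-0.069), and the SE of SKA2 falls from 0.17 to 0.095 without the 4 libraries.

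Parity was not what the genes were chosen on and was tested in a model that held pregnancy status. STAG2 was 244, 281 and 373 CPM (lowest, median, highest) in the 12 cows of parity 1, against 248, 291 and 480.0 CPM in the 11 cows of parity 2 or 3. The log2 difference, parity 2 or 3 minus parity 1, was 0.097 (95% interval -0.12 to 0.31), with an adjusted p of 0.981 by edgeR's quasi-likelihood test. With the libraries that stood apart kept in, the value was 0.0016 without pregnant replicate 21, of parity 3. Without the libraries that stood apart it was 0.17 (SE 0.11). Without these and pregnant replicates 20 and 21 it was 0.091 (SE 0.081), close to the value in all libraries. Leaving out replicate 21 thus removed most of the difference only while the libraries that stood apart were kept.

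SKA2 was 16.5, 33.9 and 44.3 CPM in parity 1 and 18.4, 38.5 and 48.3 CPM in parity 2 or 3, with 9 of 11 of the latter above the median of the former. The log2 difference was 0.21 (95% interval -0.13 to 0.56, edgeR adjusted p 0.981) and fell to 0.089 without the 4 libraries that stood apart, 3 of which were of parity 1. DIDO1 was 36.8, 49.4 and 70.4 CPM in parity 1 and 43.1, 48.5 and 60.4 CPM in parity 2 or 3. Its log2 difference was -0.084 (95% interval -0.30 to 0.13, edgeR adjusted p 0.981) and 0.015 without the 4 libraries. The ranges of the parity classes overlapped for each gene, and no parity difference passed the test. With days from calving as a covariate the differences were 0.12 (STAG2), 0.24 (SKA2) and -0.12 (DIDO1), and none passed the test. Over all genes edgeR called 0 by parity (0% of 14852, with 520 or 3.5% at an unadjusted p of 0.05) and DESeq2 called 0 of 14776. Without the 4 libraries edgeR again called 0, with 4.21% at an unadjusted p of 0.05. The intervals leave room for a SKA2 difference of up to 0.56 on the log2 scale.

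The SD of DIDO1 was 11.1 CPM in parity 1 (n = 12), 6.01 CPM in parity 2 (n = 5) and 3.22 CPM in parity 3 (n = 6). The 3 highest values, those of pregnant replicates 5, 22 and 23, came from cows of parity 1. Without the 4 libraries that stood apart the SDs were 7.69, 2.09 and 3.22 CPM, and without all 6 they were 6.98, 2.09 and 3.58 CPM, so the order of parity 2 and 3 turned (2.09 CPM in parity 2 without non-pregnant replicate 6 alone). This difference in spread was seen in the values and was not tested.

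Days from calving to transfer gave no slope that passed the test for any of the 3 genes. Per 30 days, with status in the model, the log2 slope was -0.020 (95% interval -0.095 to 0.056) for STAG2, 0.0023 (-0.12 to 0.12) for SKA2 and 0.041 (-0.034 to 0.12) for DIDO1. The 4 libraries that stood apart came from cows in the middle of the range of days, where SKA2 was lowest and DIDO1 highest. Without them the slopes were -0.023, 0.0033 and 0.041, about as large as with them. For DIDO1 the slope was 0.025 to 0.053 per 30 days under the other settings and 0.025 to 0.065 when each cow was left out once, highest without pregnant replicate 15, the cow with the most days (274). edgeR called 0 genes by days (0% of 14852, with 339 or 2.28% at an unadjusted p of 0.05) and DESeq2 called 0 of 14852. When these 4 libraries were left out, edgeR called 0, with 3.82% at an unadjusted p of 0.05.

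**Figure D5:**
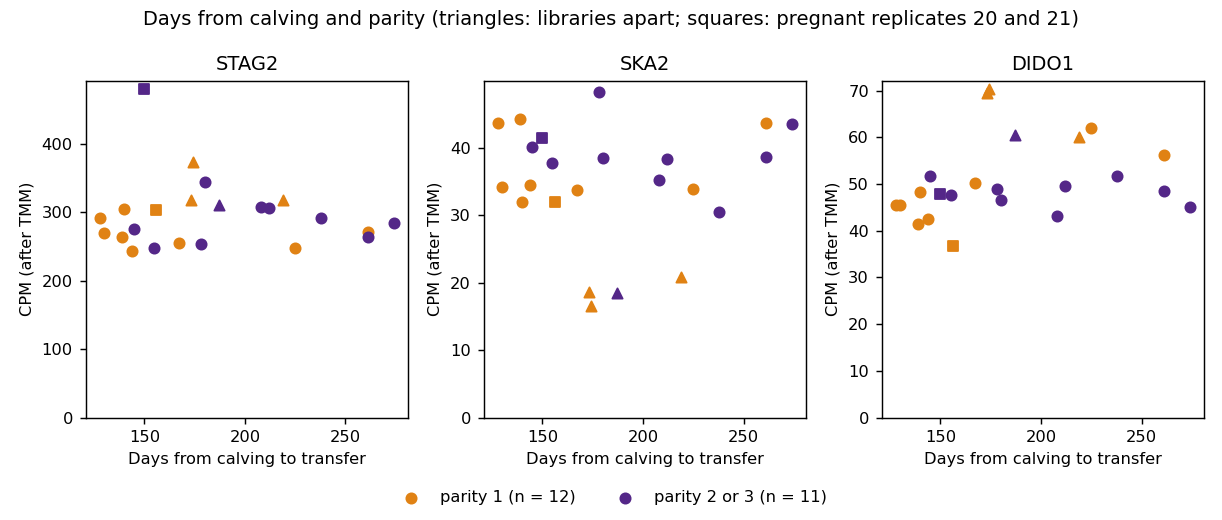
Level of STAG2, SKA2 and DIDO1 (CPM after TMM, vertical axes from 0) against days from calving to transfer (128 to 274) in 23 cows, coloured by parity class. Triangles mark the libraries that stood apart, at 173 to 219 days, and squares mark pregnant replicates 20 and 21. Cows of parity 1 lie at 128 to 261 days and cows of parity 2 or 3 at 145 to 274 days.

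When the cows were split by both status and parity, SKA2 was highest in pregnant cows of parity 2 or 3, at 41.7 ± 4.77 CPM (n = 5, 35.2 to 48.3 CPM). It was 33.7 ± 8.12 CPM in non-pregnant cows of parity 2 or 3 (n = 6), 33.0 ± 8.33 CPM in non-pregnant cows of parity 1 (n = 5) and 31.8 ± 10.9 CPM in pregnant cows of parity 1 (n = 7). None of the 4 libraries that stood apart was in the first of these classes and each of the others held at least 1. Each mean differed from the next in order by less than the larger of their SDs. Without the 4 libraries the first class stayed highest at 41.7 CPM and pregnant cows of parity 1 moved from last to next at 37.6 ± 5.68 CPM (n = 5), ahead of 36.7 and 36.03 CPM in non-pregnant cows of parity 2 or 3 and of parity 1.

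DIDO1 had another order, with pregnant cows of parity 1 highest at 54.7 ± 13.3 CPM (n = 7) and pregnant cows of parity 2 or 3 lowest at 47.4 ± 3.37 CPM (n = 5). Between them lay non-pregnant cows of parity 2 or 3 (50.8 ± 5.04 CPM, n = 6) and of parity 1 (49.2 ± 6.97 CPM, n = 5). STAG2 ran from 320.4 ± 91.2 CPM in pregnant cows of parity 2 or 3 through 294 ± 34.6 CPM in non-pregnant cows of parity 2 or 3 and 293 ± 44.9 CPM in pregnant cows of parity 1 to 282 ± 27.7 CPM in non-pregnant cows of parity 1. Both orders changed with the libraries used. Without pregnant replicate 21 the class highest for STAG2 became the lowest, at 281 ± 22.0 CPM (n = 4). Without all 6 libraries this class, still at 281 CPM, was under non-pregnant cows of parity 2 or 3 (291 CPM). It was then above non-pregnant (273 CPM) and pregnant (263 CPM) cows of parity 1. Without the 4 libraries that stood apart the class highest for DIDO1 was at 48.6 ± 10.2 CPM (n = 5), under the 48.9 ± 1.98 CPM (n = 5) of non-pregnant cows of parity 2 or 3. Without all 6 it was highest again, at 51.6 ± 9.04 CPM (n = 4). For both genes, too, neighbours in the order differed by less than the larger SD.

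The test of the interaction, the status difference in parity 2 or 3 minus that in parity 1, passed for none of the 3 genes. On the log2 scale it was 0.36 for SKA2 (95% interval -0.34 to 1.06), -0.25 for DIDO1 (-0.69 to 0.18) and 0.071 for STAG2 (-0.37 to 0.51), each with an adjusted p of 0.988 by edgeR's quasi-likelihood test. Without the 4 libraries that stood apart the values for SKA2 and DIDO1 shrank to 0.13 and -0.10, and without replicate 21 that of STAG2 was -0.12. edgeR called 0 genes for the interaction (0% of 14852, with 443 or 2.98% at an unadjusted p of 0.05) and DESeq2 called 0 of 14810. When these 4 libraries were left out, edgeR called 0, with 2.65% at an unadjusted p of 0.05. The interval for SKA2 was the widest and reached 1.06.

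Outside the 4 libraries that stood apart, the 3 genes varied less from cow to cow than most genes. The SD of log2 CPM over all 23 cows was 0.22 for STAG2, 0.44 for SKA2 and 0.23 for DIDO1, against a median of 0.46 over all genes. In the 19 libraries that did not stand apart it was 0.22, 0.19 and 0.16 against a median of 0.39, and 85.6%, 92.7% and 96.3% of genes had a larger SD. The genes compared were not matched for level, and the part that level plays in these shares was not tested. The drop for SKA2 shows how much of its spread lay between the 4 libraries and the rest. Counting error was smaller than this spread, since counts of 2664 to 7520 (STAG2), 200 to 1214 (SKA2) and 323 to 1559 (DIDO1) per library give a coefficient of variation from counting alone of 1.15% to 1.94%, 2.87% to 7.07% and 2.53% to 5.56%, against 18.3%, 13.2% and 11.4% measured in the 19 libraries.

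No pair of the 3 genes had a correlation that passed the test once those libraries were set aside. Over the 19 libraries, with group means removed, Pearson's r was 0.026 between STAG2 and SKA2 (rho = -0.075), -0.15 between STAG2 and DIDO1 (rho = -0.19) and 0.046 between SKA2 and DIDO1 (rho = 0.0053). The two-sided permutation p-values of r were 0.921, 0.499 and 0.853, each 0.921 when adjusted over the 3 pairs, and those of rho were 0.761, 0.43 and 0.985, each 0.985 when adjusted. Without the 2 libraries farthest from the median of the second gene of each pair r was 0.089, 0.030 and -0.0098. The pooled r over all 23 for SKA2 and DIDO1 is given only in the last section, since the 4 libraries form a cluster of their own in these genes.

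The genes with patterns most like each member were described over the same 19 libraries, by Pearson's r of log2 CPM with group means removed. For STAG2 these were ENSBTAG00000000415 (r = 0.956) and ENSBTAG00000019139 (r = 0.952), and the most opposed were ENSBTAG00000009705 (-0.918) and ENSBTAG00000046548 (-0.906). Without pregnant replicates 20 and 21 the first 2 had r = 0.859 and 0.847. SKA2 had no partner as close, with ENSBTAG00000046101 (0.732) and ENSBTAG00000019589 (0.721) highest and ENSBTAG00000018590 (-0.837) and ENSBTAG00000000695 (-0.776) lowest. For DIDO1, ENSBTAG00000005138 (0.899) and ENSBTAG00000003877 (0.887) were highest, and ENSBTAG00000033322 (-0.953) and ENSBTAG00000010124 (-0.806) lowest. These are the extremes of 14851 correlations per gene over libraries that share differences in depth, and they carry no test.

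Symbols were known for the other genes of the study's list, and 29 UP and 16 DOWN genes of it were set beside each member. STAG2 went most closely with RNF19A, a ubiquitin ligase (r = 0.89), CTBP2, a transcriptional corepressor (0.85), and SLC35A3, a Golgi nucleotide sugar transporter (0.78), and was most opposed to RARRES1, a gene induced by retinoids (-0.81), TMEM45A (-0.77) and EBF4 (-0.76). Without pregnant replicates 20 and 21 the values were 0.72 for RNF19A, 0.50 for CTBP2 and -0.49 for RARRES1. STAG2, a gene of the DOWN list, had a positive r with 12 of 16 other DOWN genes (median 0.47) and with 4 of 29 UP genes (median -0.46), against 48.3% of all genes tested (median -0.024). Without pregnant replicates 20 and 21 these were 12 of 16 DOWN genes (median 0.32) and 8 of 29 UP genes (median -0.24).

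DIDO1 showed the mirror of this. It went most closely with SEL1L, an adaptor of protein degradation in the endoplasmic reticulum (0.81), BHLHE40, a transcription factor of the circadian clock and stress responses (0.66), and SMARCAL1, an enzyme that remodels stalled replication forks (0.61), and among the genes most opposed to it were VPS26B of the retromer (-0.62) and SUCLG2 of the citric acid cycle (-0.61). As a gene of the UP list it had a positive r with 22 of 29 other UP genes (median 0.27) and with 3 of 16 DOWN genes (median -0.30), against 54.2% of all genes tested (median 0.040). Without pregnant replicates 20 and 21 these were 25 of 29 (median 0.29) and 1 of 16 (median -0.37). SKA2, which is also in the UP list, did neither. Its highest values were with FUNDC2 (0.56), HHEX (0.52) and FN3KRP (0.39), low values were those with PPP1R42 (-0.42) and RIN3 (-0.24), and it had a positive r with 13 of 29 UP genes (median -0.020) and 8 of 16 DOWN genes (median -0.0067), against 50.4% of all genes tested (median 0.0029). Without pregnant replicates 20 and 21 these were 14 of 29 and 6 of 16. Because the study chose the list and its directions on part of these cows, these counts are no independent evidence of either direction. The same holds without pregnant replicates 20 and 21, as the 17 libraries then used (9 non-pregnant, 8 pregnant) match that part in number.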

How the data were processed

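Per the labels, the biopsies went into RNAlater and their total RNA into a stranded library protocol. The submitters' processing notes name STAR, HTSeq and UMD3.1, and the deposited values are the authors' raw counts per Ensembl gene. The sources used here give no tool version, annotation release or strand setting. Groups and replicate numbers come from the labels. Within groups no 2 libraries agreed within counting error (in 121 pairs, over genes of 10 or more counts, chi-square divided by its degrees of freedom was at least 30.5). The study used part of these cows, 8 R and 9 nonR, which its text does not name, so all 23 were used. The 17 unmarked libraries hold the same numbers (8 pregnant, 9 non-pregnant), but whether they are the same cows is not stated.

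In R 4.3.3, genes passing the filterByExpr function of edgeR 4.0.16 were normalized by TMM and tested with its quasi-likelihood test (Benjamini-Hochberg over all genes, 0.05), by status, by parity class with status, by days from calving with status, and for the interaction. SEs were derived from each log2 difference and its F statistic, and log2 CPM used a prior count of 2. Correlations used 1e+05 permutations. Alternatives were other normalization, filters, covariates and libraries, and DESeq2 1.42.0 (Wald). The pipeline was tested on simulated data.

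The members and lists were chosen with earlier results of these data known. The rule named the 3 genes, the genes of fixed cohesin, kinetochore, DIDO1-related and proliferation lists, and those with the highest and lowest r (2 and 2 by identifier where no symbol was known). The RefSeq table used here (37063 genes, ARS-UCD2.0) held 0 Ensembl identifiers, so the fixed lists and cell type markers could not be matched. The study's own list, added after the data were seen, gave symbols, and 2 genes of it are not reported here. Likewise no sequence is printed.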

Additional observations from a re-analysis of the deposited data

Results flagged for a closer look

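STAG2 was 480.0 CPM in pregnant replicate 21, far from the other 4 of the 5 pregnant cows of parity 2 or 3, of which the next was at 307 CPM. The gap made up 0.764 of the class's range, above the limit of 0.71 (Dixon's test at 95%). This library had the fewest counts in genes (6920879) and 76.7% of its reads outside genes, and their part in the value was not tested.

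DIDO1 was 60.4 CPM in non-pregnant replicate 6, far from the other 5 of the 6 non-pregnant cows of parity 2 or 3, of which the next was at 51.8 CPM. The gap made up 0.6255 of the range, just above the limit of 0.625. The library is 1 of the 4 that stood apart on the first principal component and had 18.4 CPM of SKA2. In all, 12 classes (3 genes in 4 classes of status and parity) were looked at and 2 were marked, where chance marks about 1 in 20.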

How the results depend on the processing

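No paired analysis was possible because the replicate numbers run through both groups and no number occurs in both. Of 117 refits of the differences and slopes, 105 kept the sign and 12 turned it, and no tested value crossed the threshold. The 4 of these by status were STAG2 at -0.013 without pregnant 20 and 21, -0.069 without all 6 libraries and -0.085 with the share outside genes as a covariate, and DIDO1 at -0.0094 without the 4 libraries that stood apart. DIDO1 by parity was 0.015 without the 4 libraries that stood apart. STAG2 by days was 0.00056 without pregnant 20 and 21 and 0.0048 without all 6, and its interaction was -0.11 without 20 and 21. SKA2 by days was -0.0015 with DESeq2 size factors, -0.0014 with DESeq2's Wald test, -0.0049 without all 6 libraries and -0.023 with parity class as a covariate. Genes called by status rose from 0 to 10 with DESeq2's Wald test, and 38 other counts of calls stayed at 0.

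Over all 23 libraries r was -0.33 (STAG2 and SKA2), 0.19 (STAG2 and DIDO1) and -0.70 (SKA2 and DIDO1), the last set by the cluster of 4 libraries. Without 20 and 21 as well, r was -0.24 for SKA2 and DIDO1, 0.32 for STAG2 and the share outside genes, and with depth -0.54 (STAG2), -0.0049 (SKA2) and -0.067 (DIDO1). With group means left in, SKA2 and depth gave -0.017.

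When each cow was left out once, 0 to 1 genes were called by status (1 without pregnant replicate 8). SKA2 by days ranged from -0.020 to 0.014 and kept its sign in 13 of 23 refits. STAG2 by days ranged from -0.033 to 0.0025, DIDO1 by days from 0.025 to 0.065 and the interaction of STAG2 from -0.12 to 0.14. By status the lowest values were -0.0019 for STAG2 and -0.016 for DIDO1, so the sign turned for both. The correlations ranged from -0.10 to 0.13 (STAG2 and SKA2) and -0.24 to 0.28 (SKA2 and DIDO1). With the share outside genes they were 0.41 to 0.75 (STAG2) and -0.32 to 0.043 (SKA2), and with depth -0.82 to -0.57 (STAG2), -0.056 to 0.25 (SKA2) and -0.0017 to 0.34 (DIDO1). The other settings for the fixed gene lists were not run, as the lists could not be matched. Where no cause is named above, the cause was not tested.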
